A study of Mus musculus with 12 samples.

Results

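The 32 genes described here encode antioxidant enzymes, the NRF2 transcription factor and its partners in redox control, and they were chosen by symbol from a list. All 32 were found among the 43279 genes of the deposited table, and 31 passed the filter for testing, with Slc7a11 below it. They were measured in hematopoietic stem cells of 5 Osmr-/- knockout mice and 6 wild-type C57BL/6 mice, all adult and naive, with 1 polyadenylated RNA library from 1000 bone marrow cells of each mouse. The sort kept lineage-negative cells with KIT and SCA1 and without FLT3 and CD48, a gate that holds long-term and short-term repopulating cells. Osmr encodes the oncostatin M receptor, and the study asked what its absence in the niche does to stem cells; the labels name no cell type in which the deletion was made.

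NRF2, the product of Nfe2l2, is a transcription factor kept scarce by KEAP1, an adaptor that passes it to the CUL3 ubiquitin ligase. When reactive molecules modify thiols of KEAP1, NRF2 accumulates, pairs with a small MAF protein and binds antioxidant response elements near genes for glutathione synthesis, thioredoxin reduction and quinone detoxification. Superoxide dismutases turn superoxide into hydrogen peroxide, which catalase, glutathione peroxidases and peroxiredoxins remove, and thioredoxin recharges most peroxiredoxins. Hematopoietic stem cells are known for low levels of reactive oxygen, and higher levels are linked to loss of quiescence.

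Libraries held 9.50 to 11.2 M reads (M for mega) in Osmr-/- and 9.89 to 22.1 M reads in wild type. All 10 stem cell markers examined were detected. Of the genes for proteins that the sort selects against, Cd3e and Ly6g had at most 2.08 normalised counts and Cd5 at most 53.5 in any library, while Flt3 mRNA was present at 229 to 573 in Osmr-/- and 323 to 735 in wild type. Osmr had 4 reads over the Osmr-/- libraries and 13 over the wild-type libraries (exact permutation p 0.848, two-sided), so at this depth it could not check the genotype labels. Library Osmr-/- 3 stood apart in some neutrophil genes. S100a8 had 10779.9 normalised counts there, against 47.4 to 346 in the other Osmr-/- libraries and 19.4 to 180.3 in wild type. Camp had 5197 there, against 9.27 to 84.0 in the other Osmr-/- libraries and 11.4 to 66.5 in wild type. Mpo and Prtn3 did not stand apart, at 11.6 and 4193 in Osmr-/- 3. A list of 19 erythroid markers summed to 13116 to 19233 normalised counts in Osmr-/-, against 54350.2 to 59779.9 in wild types 1 to 3 and 18724 to 21588 in wild types 4 to 6. The genes Car2 and Car1 made up most of each sum. Car2 averaged 11416 in Osmr-/-, 37577 in wild types 1 to 3 and 15410 in wild types 4 to 6. Car1 averaged 1284, 13996 and 2341 in the same order. The red cell genes Alas2, Slc4a1 and Sptb averaged under 10. In bulk libraries, fewer cells of a type and less RNA per cell cannot be told apart.

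Per kilobase of annotated exon, the levels of the members were led by Gpx1, Txn1 and Prdx1. Gpx1, the selenoenzyme that reduces hydrogen peroxide with glutathione, averaged 39493 ± 11671 in Osmr-/- and 45480.0 ± 5377 in wild type in normalised counts per kilobase (SD, n = 5 and 6). The cytosolic thioredoxin Txn1 averaged 11846 ± 2429 in Osmr-/- and 8579.8 ± 2829 in wild type, and the cytosolic peroxiredoxin Prdx1 averaged 8767 ± 654 in Osmr-/- and 6692 ± 2137 in wild type, so that the ranges of these neighbours overlapped. Near the other end, Gss, which completes glutathione, averaged 12.0 ± 4.81 in Osmr-/- and 20.3 ± 7.86 in wild type, and Keap1 averaged 18.5 ± 7.08 in Osmr-/- and 39.8 ± 17.5 in wild type. Exon length pools all annotated transcripts, which understates genes with long alternative exons. All values after these are normalised counts not divided by length.

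**Figure D1:**
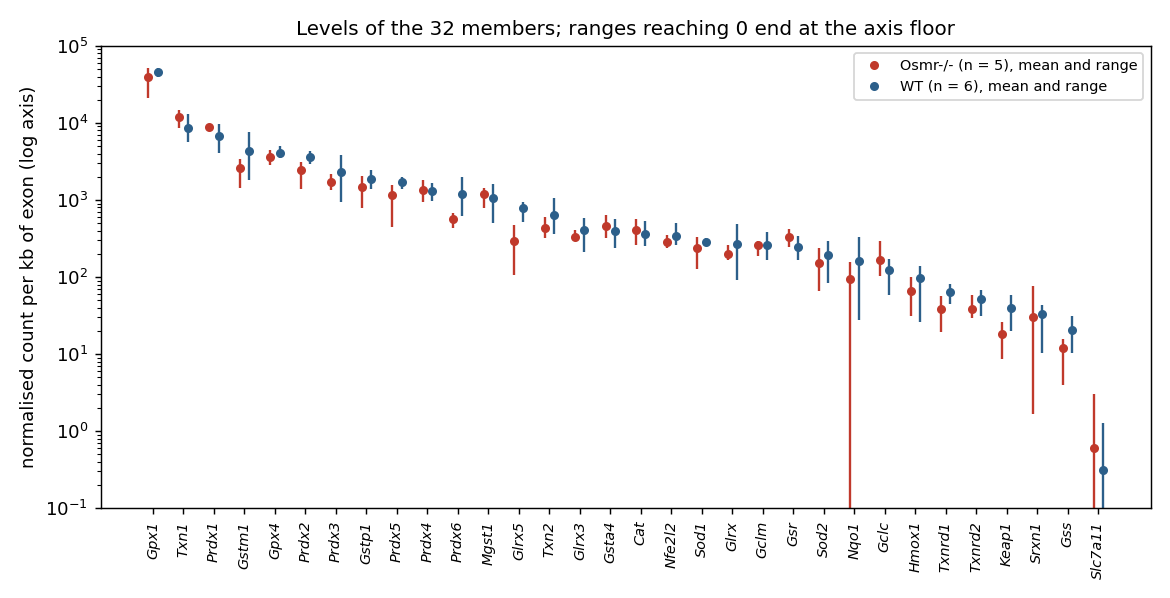
Mean and range of normalised counts per kilobase of exon (log axis) for the 32 members, ordered by the wild-type mean, with Osmr-/- in red (n = 5) left of wild type in blue (n = 6). Gpx1 stands first, at 39493 in Osmr-/- and 45480.0 in wild type, and Slc7a11 last; ranges that reach 0 end at the axis floor.

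No member passed the threshold between genotypes once p-values were adjusted over all 13358 genes tested. By limma, 0 of 31 members were higher in Osmr-/- and 0 were lower at an adjusted p under 0.05, beside 0.00749% of all genes higher and 0.015% lower. At an unadjusted p under 0.05, 0 members were higher and 6 were lower, beside 7.5% of all genes higher and 10.5% lower. The 6 were Glrx5, Prdx6, Prdx2, Prdx5, Txnrd1 and Keap1. Without Osmr-/- 3, 3 members were lower and 0 higher at that p, beside 1125 lower and 675 higher of all 13358 genes. Without Osmr-/- 6, 3 members were lower and 1 higher, beside 1352 lower and 1023 higher of all genes. Libraries of both genotypes separated by label number, 1 to 3 against 4 to 6, a split found in the data that the labels do not call a batch. Within numbers 1 to 3, 0 members were higher and 10 lower at that p, beside 8.92% and 13% of all genes. Numbers 4 to 6 hold wild types 4 to 6 but only Osmr-/- 5 and 6, since Osmr-/- 4 was not analysed here. Within numbers 4 to 6, 4 were higher and 4 lower, beside 4.42% and 5.94%. With a term for number set in the fit of all libraries, 2 were higher and 8 lower, beside 9.65% and 12.4%. In the fit without that term, differences below 0 were found in 22 of the 31 members (71.0%), beside 53.2% of all genes. The median over the members was -0.34, beside -0.052 over all genes. Mitochondrial transcripts made up 7.12 to 8.22% of normalised counts in Osmr-/-, against 3.91 to 5.67% in wild types 1, 2, 4 and 5 and 7.40 and 8.85% in wild types 3 and 6, and their part in the members' values was not tested. Each difference is in log2(normalised count + 1), Osmr-/- minus wild type, with the standard error (SE) of the fit.

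**Figure D2:**
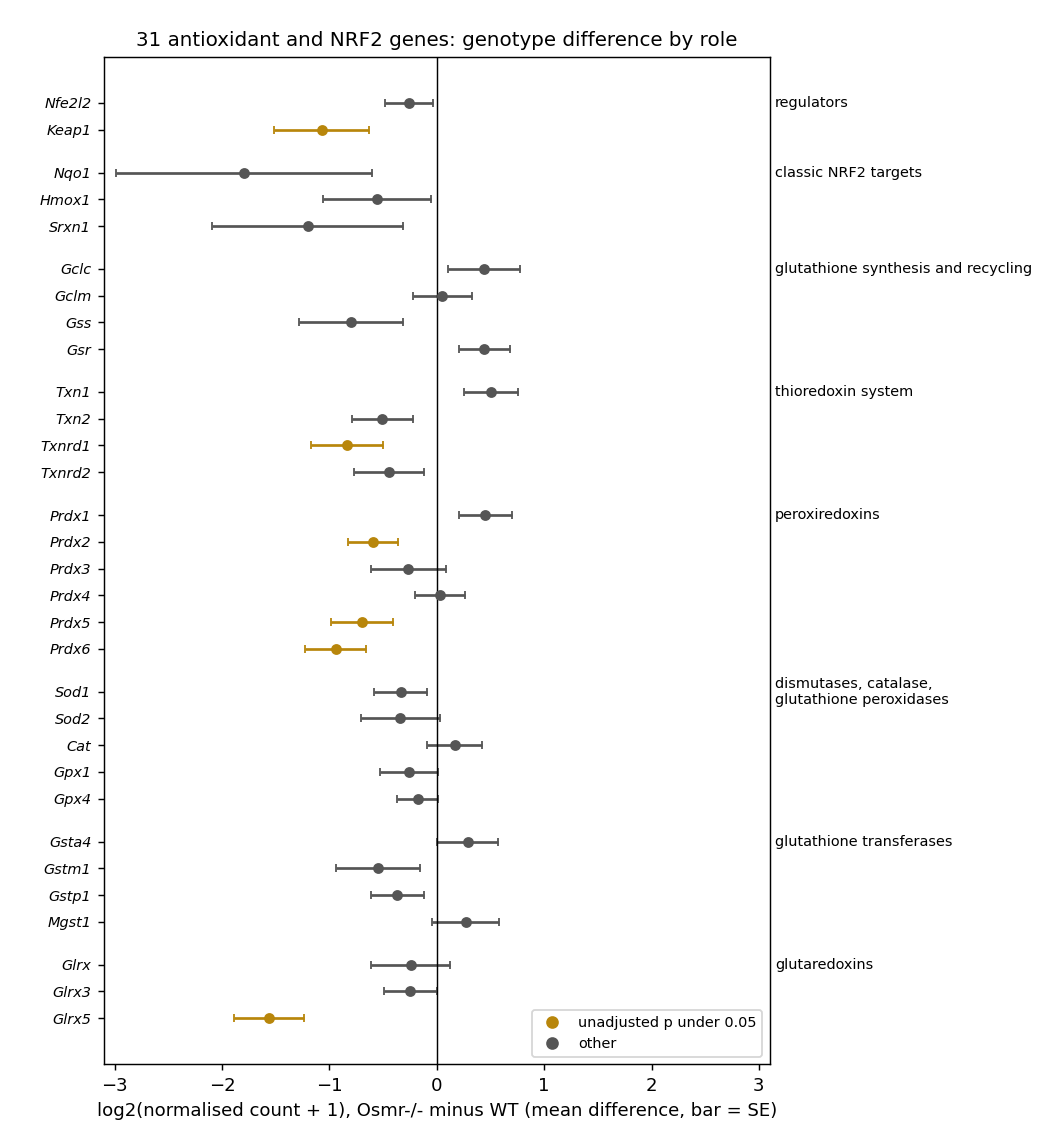
Difference between genotypes in log2(normalised count + 1), Osmr-/- minus wild type, for the 31 tested members by role, with bars of 1 SE. The 6 members at an unadjusted p under 0.05, in ochre, lie left of 0, between -1.56 for Glrx5 and -0.59 for Prdx2.

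The authors' deposited table, made with DESeq2, placed 2 of 31 members lower at an adjusted p under 0.05 and 0 higher, beside 2.79% of all its genes lower and 1.67% higher. In the authors' deposited table Glrx5 stood at -1.26 (log2, adjusted p 0.00409) and Prdx6 at -0.95 (adjusted p 0.0274). With the term for number set, limma placed 3 members lower and 0 higher, beside 1.53% of all genes lower and 0.996% higher. They were Glrx5 (adjusted p 0.0329), Prdx2 (0.045) and Prdx6 (0.0453).

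Glrx5 was the 1 member whose genotypes did not overlap. It encodes the mitochondrial glutaredoxin that hands on iron-sulphur clusters, which heme synthesis needs in zebrafish and humans, and it lies on chromosome 12 from 105032688 to 105042906 (GRCm38). Osmr-/- 1, 2, 3, 5 and 6 had 1722, 1224, 722, 1289 and 394 normalised counts, against a lowest of 1897, a median of 3079 and a highest of 3420.2 in wild type. Of the 31 members, 1 lay lower without overlap and 0 higher, beside 1.42% and 1.09% of all genes. Its mean was 1070.1 ± 518 in Osmr-/- and 2872 ± 635 in wild type (SD, n = 5 and 6), a log2 difference of -1.56 (SE 0.329, limma unadjusted p 0.00025, adjusted p 0.0706), or 0.339 of the wild-type level. Within numbers 1 to 3 it was -1.47 and within 4 to 6 -1.79, and without Osmr-/- 3 it was -1.46. Of 16 tested erythroid markers, 15 lay below 0 and 1 above. Klf1, a red cell transcription factor gene, had 0 to 127 normalised counts in Osmr-/- and 160.3 to 524 in wild type. The exception was the beta-globin gene Hbb-bt, with 707 to 1567 in Osmr-/- and 149.8 to 697 in wild type, a difference of 2.02 (SE 0.381, adjusted p 0.064), and the transferrin receptor gene Tfrc had -0.26 (SE 0.24, adjusted p 0.604). The part of these genes in the Glrx5 difference was not tested.

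The other glutaredoxins overlapped between genotypes. Glrx, the cytosolic enzyme that removes glutathione from proteins, averaged 1097 ± 224 in Osmr-/- and 1494 ± 852 in wild type, with a difference of -0.24 (SE 0.37, adjusted p 0.765). Glrx3, a cytosolic glutaredoxin of iron handling, averaged 1676 ± 236 in Osmr-/- and 2074 ± 665 in wild type, with -0.25 (SE 0.249, adjusted p 0.635).

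Of the 6 peroxiredoxins, 4 had differences below 0 and 2 above, and the 3 at an unadjusted p under 0.05 were all lower in Osmr-/-. Prdx6, which also repairs oxidised membrane lipids, lies on chromosome 1 from 161240112 to 161251219. It had 3245, 2959, 2092, 2753 and 2716 normalised counts in Osmr-/- 1, 2, 3, 5 and 6, against a lowest of 2966, a median of 4865 and a highest of 9477 in wild type. The genotypes overlapped only through Osmr-/- 1, which lay above wild type 6. For Prdx6 the difference was -0.94 (SE 0.284, limma unadjusted p 0.00462, adjusted p 0.133), with -1.43 in numbers 1 to 3 and -0.45 in 4 to 6.

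Prdx2, a cytosolic peroxiredoxin abundant in red cells, lies on chromosome 8 from 84969587 to 84974834. Osmr-/- 1, 2, 3, 5 and 6 had 8412, 9507, 8236, 6651 and 4259 normalised counts, against a lowest of 8974, a median of 10830.4 and a highest of 13136 in wild type. Of the Osmr-/- libraries only number 2 reached into the wild-type range. For Prdx2 the difference was -0.59 (SE 0.229, limma unadjusted p 0.0202, adjusted p 0.201), with -0.50 in numbers 1 to 3 and -0.83 in 4 to 6. The part of the erythroid marker levels given above in this value was not tested. Prdx2 overlaps Rnaseh2a and Junb on the other strand in GENCODE, and the strand setting of the counting is not known here, so reads of these genes cannot be told apart where they overlap.

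Prdx5, found in mitochondria, peroxisomes and cytosol, had 2988, 3332, 1909, 3195 and 959 normalised counts in Osmr-/- 1, 2, 3, 5 and 6, against a lowest of 3004, a median of 3681 and a highest of 4278 in wild type. Osmr-/- 2 and 5 lay inside the wild-type range and the other 3 below it. For Prdx5 the difference was -0.70 (SE 0.29, limma unadjusted p 0.029, adjusted p 0.234), and without Osmr-/- 6 it was -0.39. Prdx5 overlaps Trmt112 on the other strand in GENCODE, with the same limit as for Prdx2. The mitochondrial Prdx3 averaged 2504 ± 441 in Osmr-/- and 3427 ± 1909.6 in wild type, with -0.26 (SE 0.346, adjusted p 0.723). Prdx4, of the endoplasmic reticulum, averaged 2862 ± 852 in Osmr-/- and 2764 ± 604 in wild type, with 0.029 (SE 0.234, adjusted p 0.964). Prdx1 averaged 26677 ± 1989.7 in Osmr-/- and 20363 ± 6503 in wild type, with 0.45 (SE 0.249, limma unadjusted p 0.0894, adjusted p 0.359), so the peroxiredoxin of highest level per kilobase lay on the other side of 0 from Prdx2, Prdx5 and Prdx6.

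**Figure D3:**
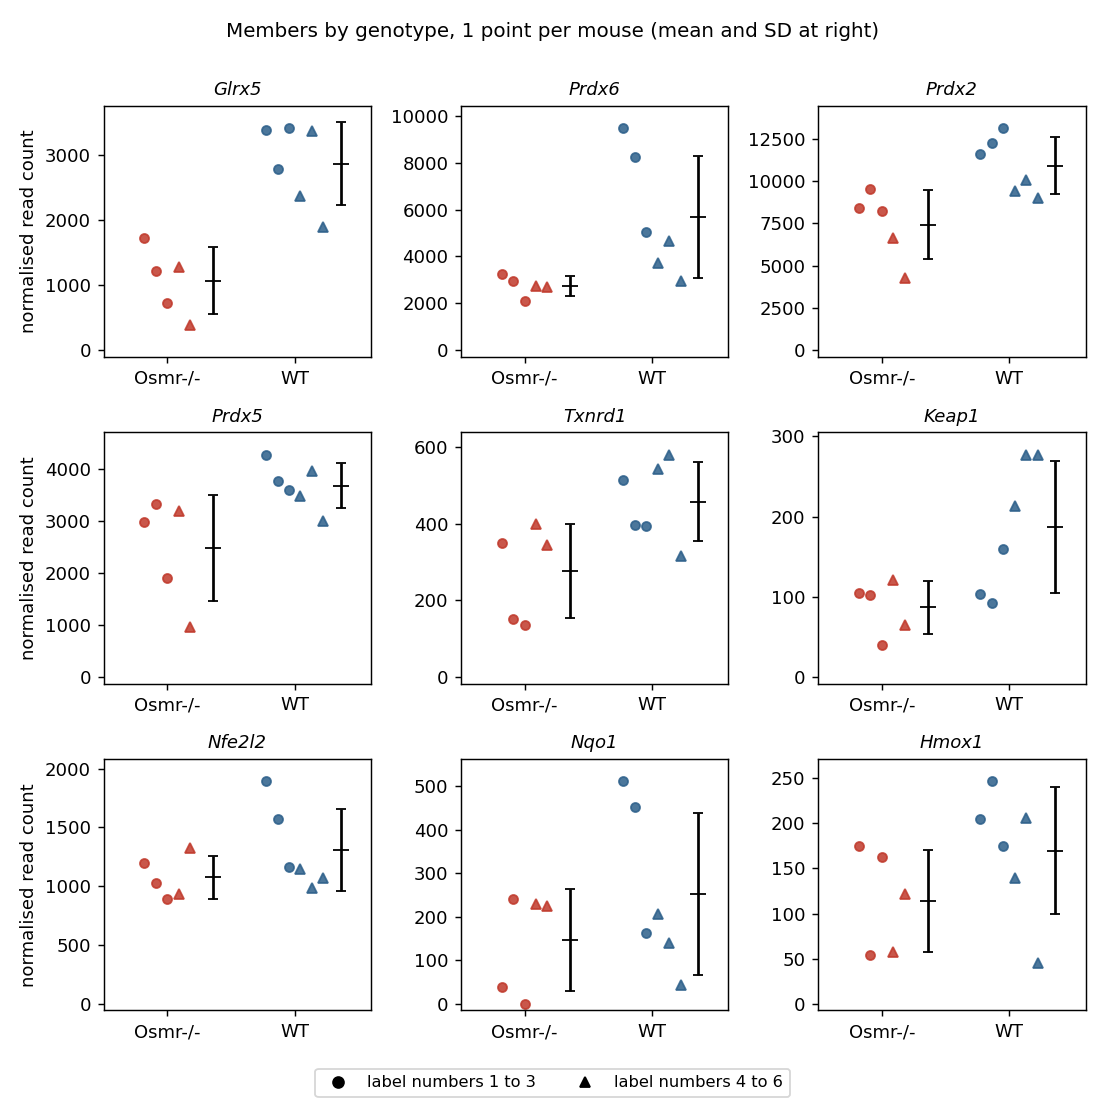
Normalised read counts of 9 members, 1 point per mouse, with Osmr-/- in red left of wild type in blue and the mean and SD at the right of each group; circles are label numbers 1 to 3 and triangles 4 to 6. In the Glrx5 panel the genotypes do not overlap, at 394 to 1722 in Osmr-/- and 1897 to 3420.2 in wild type, and in the other 8 panels they do.

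In the thioredoxin system, the cytosolic carrier and its reductase lay on opposite sides of 0. Txnrd1, the selenoenzyme that reduces thioredoxin with NADPH, had 350.0, 151, 135, 398 and 344 normalised counts in Osmr-/- 1, 2, 3, 5 and 6, against a lowest of 316, a median of 456 and a highest of 580.2 in wild type. Osmr-/- 2 and 3 lay below the wild-type range and the other 3 inside it. For Txnrd1 the difference was -0.84 (SE 0.338, limma unadjusted p 0.0258, adjusted p 0.224), with -1.16 in numbers 1 to 3 and -0.32 in 4 to 6. Txnrd1 overlaps Eid3 on the same strand and Gm38560 and Gm47073 on the other in GENCODE, so reads there cannot be told apart. Its substrate Txn1 averaged 12451 ± 2553 in Osmr-/- and 9017 ± 2973 in wild type, with 0.50 (SE 0.25, limma unadjusted p 0.0623, adjusted p 0.305). The mitochondrial thioredoxin Txn2 had -0.51 (SE 0.284, adjusted p 0.37) and its reductase Txnrd2 had -0.44 (SE 0.33, adjusted p 0.498).

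Keap1, the repressor of NRF2, lies on chromosome 9 from 21229730 to 21239361. Osmr-/- 1, 2, 3, 5 and 6 had 104, 103, 40.0, 121 and 65.4 normalised counts, against a lowest of 92.5, a median of 186 and a highest of 277 in wild type. Wild types 1 and 2 lay among the Osmr-/- values, and wild types 3 to 6 lay above all of them. For Keap1 the difference was -1.07 (SE 0.445, limma unadjusted p 0.029, adjusted p 0.234), with -0.60 in numbers 1 to 3 and -1.50 in 4 to 6. An antisense gene, Gm16754, lies across Keap1 in GENCODE, and its reads cannot be told apart from those of Keap1 without strand.

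Nfe2l2, on chromosome 2 from 75675513 to 75704641, had 1199.6, 1025, 892, 935 and 1326 normalised counts in Osmr-/- 1, 2, 3, 5 and 6, against a lowest of 988, a median of 1158 and a highest of 1891 in wild type. Its difference of -0.26 (SE 0.222, adjusted p 0.568) was within the spread between libraries, and it was 0.061 in numbers 4 to 6.

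The 4 members grouped as classic NRF2 targets, Nqo1, Hmox1, Srxn1 and Slc7a11, were low and scattered. Members for glutathione synthesis and thioredoxin reduction, which NRF2 also binds near, are given with their own groups. The quinone reductase gene Nqo1 had 39.6, 241, 0, 229 and 224 normalised counts in Osmr-/- 1, 2, 3, 5 and 6, against a lowest of 43.4, a median of 185 and a highest of 511 in wild type. Osmr-/- 2, 5 and 6 lay above the wild-type median, and the difference of -1.80 (SE 1.20, adjusted p 0.448) was -0.35 without Osmr-/- 3. Within numbers 1 to 3 it was -3.97 and within 4 to 6 1.06.

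Hmox1, the inducible heme oxygenase, had 174, 54.4, 162, 57.7 and 122 in Osmr-/- 1, 2, 3, 5 and 6, against a lowest of 45.5, a median of 189 and a highest of 246 in wild type, with -0.56 (SE 0.502, adjusted p 0.584), -0.90 without wild type 6 and -0.34 without Osmr-/- 2. Srxn1, the sulfiredoxin that rescues overoxidised peroxiredoxins, had 6.80, 4.73, 147, 53.5 and 218 in the same order in Osmr-/- and 29.2 to 123 in wild type, with -1.20 (SE 0.891, adjusted p 0.498). Its means were 85.9 ± 93.5 in Osmr-/- and 94.2 ± 32.9 in wild type, and the difference was -1.83 without Osmr-/- 6, -0.52 without Osmr-/- 2 and -0.032 in numbers 4 to 6. The authors' deposited table gave -0.08 for it. Slc7a11, which imports cystine, had 33 reads in Osmr-/-, all in Osmr-/- 3, and 27 in wild type, with 4 Osmr-/- libraries and 1 wild-type library at 0 (exact permutation p 0.654, two-sided).

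Glutathione synthesis and recycling had 3 differences above 0 and 1 below, with 0 at an unadjusted p under 0.05. Gclc, the catalytic subunit of the rate-limiting ligase, averaged 626 ± 277 in Osmr-/- and 463 ± 168 in wild type, with 0.44 (SE 0.338, adjusted p 0.514), and 0.21 without Osmr-/- 3. Its modifier subunit Gclm averaged 1616 ± 276 in Osmr-/- and 1649.6 ± 654 in wild type, with 0.051 (SE 0.274, adjusted p 0.943). Gsr, which regenerates reduced glutathione, averaged 918 ± 167 in Osmr-/- and 682 ± 168 in wild type, with 0.44 (SE 0.234, adjusted p 0.337). Gss averaged 70.9 ± 28.5 in Osmr-/- and 119.9 ± 46.5 in wild type, with -0.80 (SE 0.482, adjusted p 0.402), and -0.45 without Osmr-/- 2.

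Dismutases, catalase and glutathione peroxidases had 4 differences below 0 and 1 above, again with 0 at an unadjusted p under 0.05. The cytosolic Sod1 averaged 941 ± 334 in Osmr-/- and 1126 ± 108 in wild type, the mitochondrial Sod2 1513 ± 658 in Osmr-/- and 1919.8 ± 842 in wild type, and catalase (Cat) 1069 ± 306 in Osmr-/- and 946 ± 249.8 in wild type. Gpx1 had 57615, 74400.1, 54499, 67651 and 30379 normalised counts in Osmr-/- 1, 2, 3, 5 and 6, against a lowest of 56445, a median of 65314 and a highest of 75456 in wild type, and Osmr-/- 3 and 6 lay below that range. Gpx4, which reduces lipid peroxides in membranes, averaged 6176 ± 1208 in Osmr-/- and 6943 ± 988 in wild type, with -0.18 (SE 0.194, adjusted p 0.658). Osmr-/- 6 held the lowest value of its genotype for 12 of the 31 members and Osmr-/- 3 for 10.

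Glutathione transferases attach glutathione to reactive compounds. Gstm1 and Gstp1 had differences of -0.55 (SE 0.391, adjusted p 0.48) and -0.37 (SE 0.248, adjusted p 0.454), and Gsta4 and the membrane-bound Mgst1 had 0.29 (SE 0.288, adjusted p 0.632) and 0.27 (SE 0.311, adjusted p 0.687). Gstm1 and Gstp1 belong to families of closely similar genes, so their counts are uncertain.

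In wild type, several members separated by number set. In 14 of the 31 members wild types 1 to 3 all lay above wild types 4 to 6, and in 1, Keap1, they all lay below, beside 16.1% and 16.1% of all genes. For Gstm1, wild types 1 to 3 had 11121, 9569 and 8121 normalised counts and wild types 4 to 6 had 2681, 3675 and 2750.0, while the Osmr-/- libraries ran from 2121 to 5050.4. Its difference between genotypes was -1.50 in numbers 1 to 3 and 0.47 in 4 to 6. In the same sets Glrx had -1.16 and 0.76, Prdx3 had -1.01 and 0.49, Prdx4 had -0.52 and 0.72, Mgst1 had -0.51 and 1.13, and Prdx1 had 0.053 and 0.85. These 6 were chosen after their values were seen, as those of lowest unadjusted p for the change of the difference between sets. For Gstm1 that change was 1.97 (SE 0.424, limma unadjusted p 0.000492, adjusted p 0.232), and no member passed over all genes. In numbers 1 to 3 the median over the members was -0.52 with 25 below 0 (80.6%), beside -0.071 and 52.7% over all genes. In numbers 4 to 6 it was -0.062 with 18 below 0 (58.1%), beside 0.00072 and 50% over all genes.

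**Figure D4:**
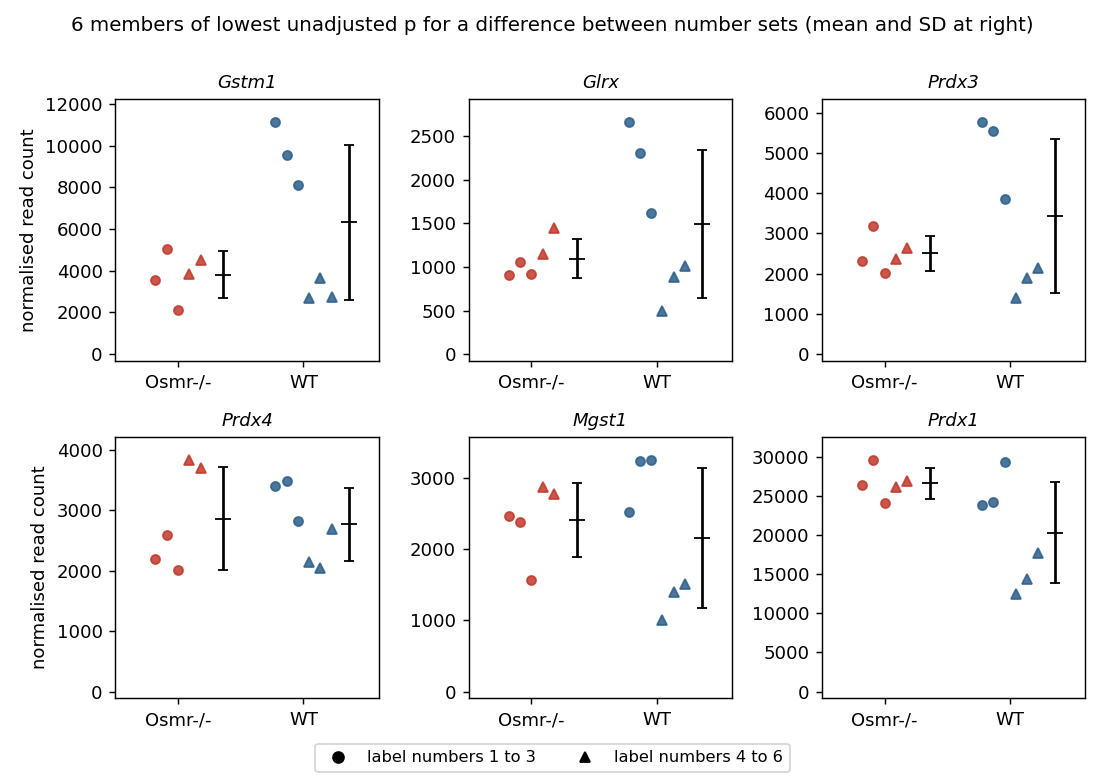
Normalised read counts of Gstm1, Glrx, Prdx3, Prdx4, Mgst1 and Prdx1, 1 point per mouse, with Osmr-/- in red left of wild type in blue, circles for label numbers 1 to 3 and triangles for 4 to 6, and the mean and SD at the right of each group. In each panel wild types 1 to 3 lie above wild types 4 to 6, for Gstm1 at 8121 to 11121 against 2681 to 3675.

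Promoter windows of 27 members were matched in RefSeq (GRCm38.p6), from 250 bases before each start to 50 after; Gclc, Gsr, Hmox1, Prdx6 and Gsta4 had none. Glrx5 and Prdx2 are shown because they were lower with the number set term, and Prdx1 and Srxn1 because they held both motifs searched. Capitals mark the antioxidant response element core TGACNNNGC or the AP-1 core TGAGTCA on either strand. The windows, all on the plus strand and written 5′ to 3′, are chr12:105032368-105032667, chr8:84969372-84969671, chr4:116685349-116685648 and chr2:152105274-152105573.
Glrx5: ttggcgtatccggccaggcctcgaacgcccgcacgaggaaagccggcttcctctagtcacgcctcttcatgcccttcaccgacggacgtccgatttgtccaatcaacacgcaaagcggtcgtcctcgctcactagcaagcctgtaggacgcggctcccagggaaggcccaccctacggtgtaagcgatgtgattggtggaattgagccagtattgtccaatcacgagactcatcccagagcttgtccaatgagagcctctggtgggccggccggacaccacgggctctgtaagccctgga
Prdx2: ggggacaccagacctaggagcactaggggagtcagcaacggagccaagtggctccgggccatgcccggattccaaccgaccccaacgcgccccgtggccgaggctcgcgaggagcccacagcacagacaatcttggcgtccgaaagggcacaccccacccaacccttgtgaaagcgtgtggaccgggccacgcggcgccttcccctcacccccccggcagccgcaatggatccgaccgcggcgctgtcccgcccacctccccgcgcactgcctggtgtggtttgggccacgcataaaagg
Prdx1: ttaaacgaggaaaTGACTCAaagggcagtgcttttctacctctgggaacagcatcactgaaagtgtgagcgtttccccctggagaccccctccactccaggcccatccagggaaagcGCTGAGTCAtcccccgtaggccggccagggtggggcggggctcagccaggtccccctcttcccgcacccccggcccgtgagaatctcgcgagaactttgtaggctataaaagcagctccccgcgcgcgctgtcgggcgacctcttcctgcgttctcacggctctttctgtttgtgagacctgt
Srxn1: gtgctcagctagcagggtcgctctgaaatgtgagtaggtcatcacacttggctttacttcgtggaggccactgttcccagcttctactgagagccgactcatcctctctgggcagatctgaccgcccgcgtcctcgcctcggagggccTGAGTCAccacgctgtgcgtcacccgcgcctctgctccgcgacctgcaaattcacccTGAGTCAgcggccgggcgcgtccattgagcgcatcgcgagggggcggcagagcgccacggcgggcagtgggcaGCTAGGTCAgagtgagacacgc

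Neither core was found in the windows of Glrx5 and Prdx2, which says only that these letters are not there. The Glrx5 window follows a RefSeq start and ends at 105032667, upstream of the GENCODE start of 105032688 given above. In Prdx1 the antioxidant response element match, GCTGAGTCA at position -133 from the start, overlaps an AP-1 match at -131, and a further AP-1 match lies at -237. The antioxidant response element core was in 7 of 35 windows of the members (20%), against 12.4% of 32851 windows in all, and these belonged to Nfe2l2, Srxn1, Gclm, Prdx1, Mgst1, Txnrd1 and Sod1. The AP-1 core was in 5 windows (14.3%), against 5.2% of all; they belong to 4 members, since the overlapping windows of Glrx hold the same match.

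Other genes of the redox network were taken from further lists in the same fit, and 0 of them passed over all genes by limma. The counts that follow from all libraries stand beside 53.2% of all genes below 0. At an unadjusted p under 0.05, 7.5% of all genes were higher and 10.5% lower. In numbers 4 to 6 these shares were 50%, 4.42% and 5.94%, with a median of 0.00072 over all genes. On omission of a library, 675 to 1180 of the 13358 genes were higher and 1069 to 1519 lower at that p. Of 20 further NRF2 target genes, 18 had differences below 0 and 2 above, with 0 higher and 7 lower at an unadjusted p under 0.05 and a median of -0.58, beside -0.052 over all genes. In numbers 4 to 6, 12 lay below 0 with a median of -0.24, and on omission of a library the median ran from -0.70 (without wild type 6) to -0.38 (without wild type 1). Blvrb, a biliverdin reductase gene strongly expressed in red cells, averaged 651 ± 313 in Osmr-/- and 2224 ± 1100.5 in wild type without overlap, with -1.81 (SE 0.352, adjusted p 0.064). The carbonyl reductase gene Cbr1 averaged 485 ± 155 in Osmr-/- and 1216 ± 497 in wild type, with -1.29 (SE 0.318, adjusted p 0.0956). The other biliverdin reductase gene, Blvra, had -0.82 (SE 0.242, adjusted p 0.13). With the number set term, 3 of these 20 genes were lower and 0 higher by limma at an adjusted p under 0.05. Over all genes, 1.53% were lower and 0.996% higher at that threshold.

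Of 14 further regulators of the pathway, 8 lay above 0 and 6 below, with 2 higher and 1 lower at an unadjusted p under 0.05. The lower count ran from 0 (without Osmr-/- 1 or Osmr-/- 5) to 3 (without Osmr-/- 3) on omission of a library, and 9 of the 14 lay below 0 in numbers 4 to 6. Bach2, a repressor that also pairs with small MAF proteins, had 305, 317, 534, 596 and 384 normalised counts in Osmr-/- 1, 2, 3, 5 and 6, against a lowest of 124, a median of 209 and a highest of 229.6 in wild type. The genotypes did not overlap, and the difference was 1.17 (SE 0.309, adjusted p 0.105, and 0.0428 with the number set term). In the authors' deposited table Bach2 stood at 1.08 (adjusted p 0.00385). Rbx1, a subunit of the ligase that KEAP1 serves, had 0.73 (SE 0.259, adjusted p 0.177, and 0.0459 with that term), and Sqstm1, which sequesters KEAP1, had -0.67 (SE 0.268, adjusted p 0.22).

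Of 22 tested peroxide and thiol enzymes outside the members, 16 lay below 0, with 0 higher and 6 lower at an unadjusted p under 0.05 and a median of -0.45. In numbers 4 to 6, 11 lay below 0 and 2 were lower, with a median of 0.0065, and on omission of a library the median ran from -0.59 (without wild type 5) to -0.25 (without wild type 3). Txndc12, a thioredoxin-like protein of the endoplasmic reticulum, averaged 229 ± 36.6 in Osmr-/- and 573 ± 257 in wild type without overlap, with -1.20 (SE 0.324, adjusted p 0.11, and 0.0401 with the number set term). Gpx7 and Pon2 had -1.21 (SE 0.416, adjusted p 0.162) and -0.83 (SE 0.299, adjusted p 0.181). Of 16 tested genes of glutathione transfer and turnover, 14 lay below 0, with 0 higher and 6 lower at an unadjusted p under 0.05 and a median of -0.67. In numbers 4 to 6, 9 lay below 0 and 1 was lower, with a median of -0.13, and on omission of a library the lower count ran from 1 (without wild type 2) to 7 (without wild type 5); it was 3 without Osmr-/- 1, Osmr-/- 3 or wild type 1. Gstt1, a theta class transferase, averaged 156 ± 90.2 in Osmr-/- and 451 ± 133 in wild type without overlap, with -1.86 (SE 0.53, adjusted p 0.126). Gstz1 and Gstt3 had -1.14 (SE 0.453, adjusted p 0.217) and -1.26 (SE 0.513, adjusted p 0.226).

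Of 7 tested NADPH oxidase genes, whose products make superoxide, 6 lay below 0, with 0 higher and 2 lower at an unadjusted p under 0.05. The lower count was 0 without Osmr-/- 6 or wild type 1 and 1 without Osmr-/- 2, Osmr-/- 3, Osmr-/- 5, wild type 4, wild type 5 or wild type 6, the higher count was 1 without wild type 1 or wild type 6, and 4 of the 7 lay below 0 in numbers 4 to 6. Cyba, the membrane subunit, had -0.61 (SE 0.255, adjusted p 0.238), and Nox1 had 1.89 (SE 0.95, adjusted p 0.309). Of 12 tested genes of FOXO signalling and stem cell redox control, 6 lay above 0 and 6 below, with 2 higher and 1 lower at that p. The number above 0 ran from 3 (without wild type 2) to 8 (without Osmr-/- 2) on omission of a library and was 9 in numbers 4 to 6. Without Osmr-/- 1, Osmr-/- 3, wild type 4 or wild type 5 the higher count was 1, and without wild type 6 the lower count was 2. Bmi1, a Polycomb gene of stem cell self-renewal, averaged 1618 ± 454 in Osmr-/- and 819 ± 139.5 in wild type, with 0.94 (SE 0.243, adjusted p 0.104, and 0.0439 with the number set term). The sirtuin genes lay on opposite sides of 0, the mitochondrial Sirt3 at -0.74 (SE 0.238, adjusted p 0.149) and the nuclear Sirt1 at 0.63 (SE 0.268, adjusted p 0.241).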

How the data were processed

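The submitters' processing notes name Trimmomatic 0.36.6, FastQC 0.72, HISAT2 2.1.0, HTSeq 0.9.1 and, for what the authors compared, DESeq2 2.11.40.6, with the mouse build mm10. Annotation and strand setting are unknown here. The authors deposited a signal per gene, its read count divided by the library's size factor (normalised count), and regularised log2 values. The authors' deposited comparison table has no header, so its log2 fold change, Wald score, p-value and adjusted p-value columns were recognised from their values. The 615 genes that pass 0.05 in the authors' deposited table carry the sign of wild type minus Osmr-/-, and its fold changes are printed with the sign turned.

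Of 12 labelled samples, Osmr-/- 4 was not analysed here. Read totals came from the step between values of a library, of which all values were whole multiples within 1.4e-09, and no count model was fitted. log2(normalised count + 1) was fitted with limma 3.58.1 in R 4.3.3 (eBayes with trend, genotype only) over 13358 genes with at least 10 normalised counts in at least 5 libraries. P-values are two-sided and adjusted by Benjamini-Hochberg over those genes, with a threshold of 0.05; the fit was tested on simulated data. Slc7a11 and Osmr were compared by exact permutation over 462 splits, whose smallest p is 0.00216. Each library is a different mouse.

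The members and lists were chosen with earlier results of these data known. Values of every library are given for members at an unadjusted p under 0.05, for those without overlap or past the threshold in the authors' deposited table, and for Nfe2l2, Keap1, Nqo1 and Hmox1; Srxn1 and Gpx1 were added after their values were seen. From each further list the 3 genes of lowest unadjusted p are named, but for 1 that is not reported here. Positions and exon lengths are from GENCODE M21 on GRCm38, the assembly of mm10.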

Additional observations from a re-analysis of the deposited data

Results flagged for a closer look

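In 4 of 64 groups of member values, 1 library lay far from the others of its genotype, where chance gives about 1 in 20. Gclc had 1103 normalised counts in Osmr-/- 3, against 388 to 577 in the other Osmr-/- libraries. Slc7a11 had 42.5 in Osmr-/- 3, with 0 in the other 4, and 17.6 in wild type 6, with 0 to 5.04 in the other wild types. Srxn1 had 29.2 in wild type 3, against 101 to 123 in the other wild types. Osmr-/- 3 is also the library with 10779.9 normalised counts of S100a8, whose part in these values was not tested.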

How the results depend on the processing

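The number of members higher in Osmr-/- was 0 under every alternative run: pseudocounts of 0.5 and 10, no filter, a filter at 50, scaling by a trimmed mean of log ratios, the authors' deposited regularised log2 values, the number set term, each number set alone, the replicate block and the omission of each library. The number lower was 0 in the reported fit, 1 with a pseudocount of 10 and 1 with the regularised values (Glrx5, adjusted p 0.0492 and 0.0451), and 3 with the number set term. On omission of a library it ranged from 0 to 1, with 1 (Glrx5, adjusted p 0.0399) without wild type 6. Over all genes the reported fit called 1 higher and 2 lower, against 13 higher and 42 lower with a pseudocount of 10, 18 higher and 51 lower with the regularised values, 133 higher and 204 lower with the number set term, 30 higher and 92 lower without wild type 6, and 0 higher and 0 lower with no filter. Within numbers 4 to 6 alone, Nfe2l2 was at 0.061, Nqo1 at 1.06, Prdx3 at 0.49, Gstm1 at 0.47, Glrx at 0.76 and Cat at -0.038. Within numbers 1 to 3 alone, Gclm was at -0.31, Prdx4 at -0.52 and Mgst1 at -0.51. All of these were opposite in sign to the reported fit, and the cause was not tested. Of the 31 tested members, 21 had a difference that moved by over 1.5 times or changed sign on omission of 1 library, and 2 (Gclm and Prdx4) changed sign. On omission of a library the log2 difference of Osmr ranged from -0.33 to 0.28. With label number as a replicate block over the 5 shared numbers (wild type 4 left out), 0 members were higher and 0 lower, and 1 higher and 5 lower over all genes; same-numbered libraries correlated at 0.02 to 0.099, so the numbers were not taken as pairs. The planned count models were not run. Depth limits members of few counts, such as Slc7a11, Srxn1 and Gss.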
